A study of Homo sapiens with 108 samples.

Results

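The immediate-early and inducible regulator mRNAs examined here are 42 genes, listed by symbol, out of 19761 genes counted in a SLAM-seq experiment on zinc-finger protein knockdowns. The sequenced intervals of each Ensembl gene were summed, and all 42 symbols were found in the files, with no counted base shared with another gene. The cells were HEK293T, a human embryonic kidney line, transduced with lentivirus carrying an shRNA to ZNF706, ZMAT5, ZMAT3, ZFP36L1, PHF7, MAZ, CNOT4 or BRCA1 or a control shRNA without a target (non-targeting, NT), and selected with puromycin. Every culture, NT included, was labelled with 4-thiouridine (4SU) and then placed in excess uridine for 0, 2, 4 or 8 h. There were 3 biological replicates for each of the 36 arm and chase time groups, 108 libraries in all, and the 8 knockdowns share the 12 NT libraries as their control. In SLAM-seq, alkylated 4SU is read as cytosine, so the share of covered thymines read as C (the T>C rate) marks RNA made before the chase, and its loss over the chase follows decay. The read count over the 3′ UTR gives the level of the mRNA.

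These mRNAs encode proteins that cells make quickly and briefly after a signal: AP-1 subunits, MYC, KLF and EGR transcription factors, and the phosphatases and Sprouty-type inhibitors that switch the signal off again. Their transcripts are known for rapid turnover, which lets the level follow transcription closely. Many carry AU-rich elements in the 3′ UTR, built around the pentamer ATTTA, and proteins of the ZFP36 family, to which ZFP36L1 belongs, bind such elements and recruit deadenylases.

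The counted 3′ UTR of 37 of the 42 members held at least 1 ATTTA on the transcribed strand, and the median member held 2.33 per kb, against 1.44 per kb over the 18020 genes with a read. The longer core TATTTAT, which contains ATTTA, was present in 26 members (61.9%), against 34.4% of all genes and a mean of 30.4% of genes whose counted UTR was of similar length. The nonamer TTATTTATT, which contains TATTTAT, was present in 8 members (19.0%), against 9.3% of all genes and 7.3% of genes of similar length. Windows of 30 bases are shown for some of the members whose level or label the results below turn on, and for PIM1, DUSP1 and FOS, where the pentamers overlap. They are written 5′ to 3′ in the sense of the mRNA, read from hg38, with each ATTTA in capitals.
IER5: ttcctttATTTATTTATTTATTTAattata
PIM1: gttatgtATTTATTTATTTATTTAtttggt
DUSP1: ggctggtccttATTTATTTAacttcacccg
FOS: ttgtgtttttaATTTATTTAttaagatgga
PIM3: cggggctATTTAttgtttaATTTAtttgtt
RHOB: gatgttatttgATTTATTTAaaggctaaaa
IRF2BP2: ttttaacaATTTAtagaATTTAacagatgt
JUN: ttccagaaaggatATTTAagaaaatacaat
JUND: tcgattctgccctATTTAtgtttctactcg
SOX4: tatatgtggacgtATTTAtactggccaaac
ATF3: cctcaactccaggATTTAggccttaacaca
NFKBIA: aaaagaagaaaaaATTTAaagggtgtactt
HEXIM1: tttggtttcgtaaATTTAgctatatgtagc
On the plus strand these lie at chr1:181092448-181092477 (IER5), chr6:37174986-37175015 (PIM1), chr14:75282057-75282086 (FOS), chr22:49963617-49963646 (PIM3), chr2:20448868-20448897 (RHOB), chr6:21597401-21597430 (SOX4), chr1:212619764-212619793 (ATF3) and chr17:45150399-45150428 (HEXIM1). On the minus strand they lie at chr5:172768641-172768670 (DUSP1), chr1:234604595-234604624 (IRF2BP2), chr1:58781336-58781365 (JUN), chr19:18279998-18280027 (JUND) and chr14:35401910-35401939 (NFKBIA). HES1, IER2, DUSP5, GADD45B and ARC held no ATTTA in the counted UTR. MYC held 4 ATTTA in 543 counted bases, and no window is shown for it. IER5 and PIM1 each carried 4 overlapping pentamers in the window shown, and RHOB, IRF2BP2 and HEXIM1 held ATTTA but no TATTTAT. A match describes the letters of the UTR and no binding was measured here.

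The libraries held 63659 to 30750027 counted reads (median 14870063). The shallowest was replicate 3 of PHF7 at 8 h, and the libraries labelled CNOT4 and ZFP36L1 stood apart in having 27.7 to 34.0 and 25.9 to 33.0 covered thymines per read, against 37.1 to 37.8 in NT. Their share of multimapped reads was 5.82% to 11.9% and 9.21% to 12.4%, against 6.66% to 6.91% in NT, and the part of either measure in the results was not tested. Within the arm labelled CNOT4, the 8 h libraries had 32.5 to 34.0 covered thymines per read and 5.82% to 5.91% multimapped reads. Those of 0, 2 and 4 h had 27.7 to 31.3 and 9.35% to 11.9%. Chase to 8 h cannot be told apart from this difference in that arm, in levels, label slopes or half-lives. One library labelled CNOT4, replicate 3 at 2 h, held 1781724 reads and 6495 genes with a read. The targeted mRNA averaged 12.2% of NT in MAZ libraries, 10.5% in ZMAT5, 24.8% in ZMAT3 and 50.5% in ZNF706, all called lower by edgeR (largest adjusted p = 0.00209). It averaged 29.3% of NT in PHF7 libraries, at 1.24 CPM (TMM-scaled counts relative to the library total) against 4.24 CPM in NT, and 53.8% in BRCA1 libraries, and neither was called (adjusted p = 0.336 and 0.220). The target was at 100.5% of NT in the libraries labelled CNOT4 and at 171.8% of NT in those labelled ZFP36L1 (adjusted p = 0.00233, higher), so both arms are named by their labels throughout. Of 6 genes expressed in HEK293T, NEFL, LIN28B and VIM were read in every library, NEFM and KRT18 were at 0 in 2 libraries each and KRT8 at 0 in 3 (median 6.79 CPM), and the median library had 0 reads of the blood, liver, endothelial, glial and muscle markers PTPRC, CD3E, ALB, PECAM1, VWF, GFAP and MYH7. Of the fibroblast markers, COL1A2 was at 0 in the median library and COL1A1 at 14.9 CPM.

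Levels were compared over the 12 libraries of each arm, in CPM after TMM scaling, with edgeR's quasi-likelihood test and chase time as a factor. A member was called at an adjusted p under 0.05 (Benjamini-Hochberg over all genes tested) and a change above 1.2-fold. In bulk RNA, fewer expressing cells and less RNA per cell cannot be told apart. The levels are 3′ tag counts and are not scaled by length, so each gene is compared only with itself. Of 330 member and knockdown pairs tested, 63 were called, 29 higher and 34 lower than NT. Of the 42 members 24 were called in at least 1 knockdown and 18 in none. Genes called in at least 1 knockdown were not counted over all genes, so the 24 has no background. The shares of all genes are given below for each arm. When any 1 replicate was left out, 33 of the 63 calls held in every such fit, and 14 held under every alternative tried.

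The count of called members differed widely between arms. In the libraries labelled ZFP36L1, 4 of 41 tested members rose and 14 fell, against 21.7% higher and 18.3% lower over all genes, and the median member was at -0.39 on the log2 scale against 0.15 for all genes. In those labelled CNOT4, 7 of 42 rose and 6 fell (all genes 13.5% higher and 13.5% lower), with medians of 0.04 and 0.08. In ZMAT5 libraries 8 of 41 rose and 5 fell (all genes 5.29% and 4.22%), with medians of 0.38 and 0.06. In ZMAT3 libraries 3 of 42 rose and 3 fell (5.49% and 4.75%), in PHF7 libraries 2 of 41 rose and 3 fell (3.89% and 4.53%), and in ZNF706 libraries 4 of 42 rose and 2 fell (2.85% and 2.29%). In MAZ libraries 1 of 40 rose and 1 fell (5.19% and 3.55%). In BRCA1 libraries edgeR called 0 of 41 members (0.0393% of genes higher and 0.0393% lower), and DESeq2 also called 0. There 3 members had an unadjusted p under 0.05 in edgeR, a threshold at which all genes were not counted. Without the PHF7 library of 63659 reads 7 PHF7 members were called, and 15 members were called for CNOT4 without its library of 1781724 reads and the 8 h libraries of both arms, since the deposited tables of the 8 h libraries labelled CNOT4 carry another header. Without that PHF7 library the count over all genes was 1922, against 1121 with it. Leaving out replicate 1 lowered the count in the libraries labelled CNOT4 to 7 and in PHF7 libraries to 3. Over all genes the counts fell from 3588 to 1834 and from 1121 to 279. In ZMAT3 libraries the count was 3 without replicate 1 and 3 without replicate 3 (792 and 641 of all genes, against 1363). In ZNF706 libraries it was 2 with any replicate left out, and in MAZ libraries 1. Over all genes MAZ then had 509 to 632, against 1171. ZNF706 had 278 without replicate 1 and 272 without replicate 2, against 673. Without FOSL1 and GEM, which had a single NT read each, 16 higher calls stood. These genes were the only higher calls in PHF7 libraries, and GEM was the only one in MAZ libraries. Both were also among the higher calls in ZMAT3, ZMAT5 and ZNF706 libraries and in those labelled CNOT4 and ZFP36L1.

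**Figure D1:**
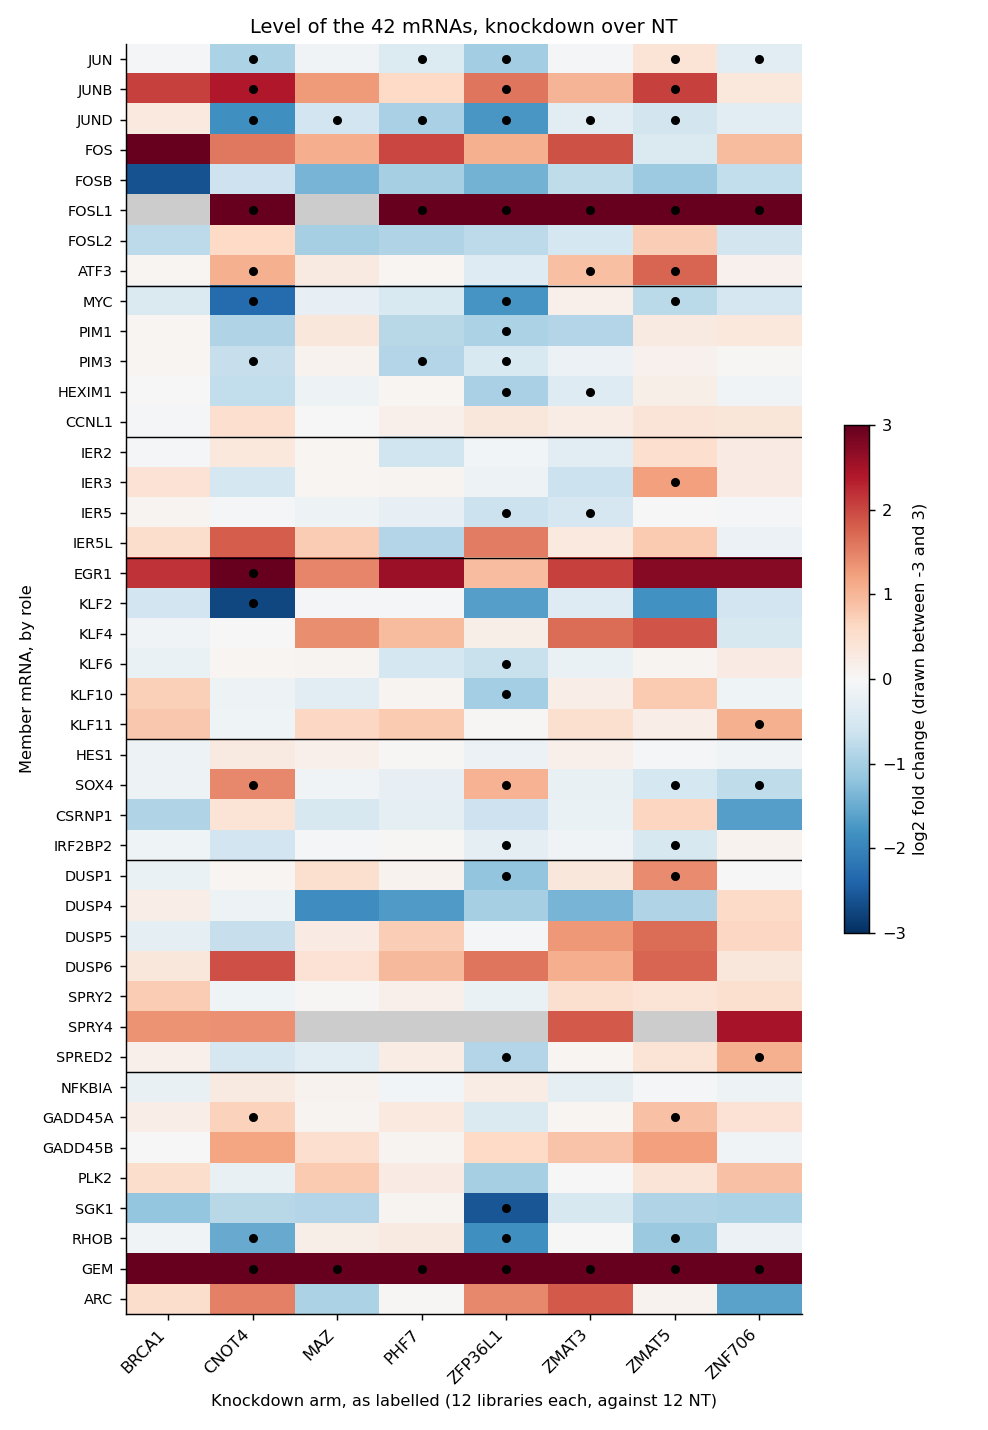
Level of each of the 42 mRNAs (rows, grouped by role) in each knockdown arm (columns), as the log2 fold change over NT from 12 libraries against 12, with black dots on the 63 called pairs and grey cells for pairs not tested. The column labelled ZFP36L1 holds 14 lower and 4 higher calls, and the BRCA1 column holds none.

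Among the AP-1 proteins, which pair through leucine zippers to bind DNA, the mRNA of JUND fell in 6 of the 8 knockdowns. JUND had a lowest, median and highest level of 46.0, 56.0 and 70.9 CPM in the libraries labelled ZFP36L1, against 142.5, 185 and 249 CPM in NT libraries. It had 28.7, 52.5 and 117 CPM in the libraries labelled CNOT4, and neither group overlapped NT. The log2 changes were -1.75 ± 0.11 (SE, adjusted p = 8.37e-16) and -1.83 ± 0.18 (adjusted p = 1.71e-09). In PHF7 libraries JUND had 0, 98.0 and 113 CPM, the 0 being the library of 63659 reads, and the change was -0.97 ± 0.15 (adjusted p = 5.44e-05). Smaller decreases were called in MAZ libraries (-0.58, adjusted p = 0.000127), ZMAT5 libraries (-0.56, 0.00196) and ZMAT3 libraries (-0.34, 0.0160), where the groups overlapped. With the other 7 knockdowns in place of NT, the JUND log2 change was 0.04 in MAZ, 0.07 in ZMAT5, 0.30 in ZMAT3 and -0.44 in PHF7 libraries, and none of these 4 was called by edgeR (adjusted p = 0.958, 0.888, 0.505 and 0.233). The ZMAT3 call was lost whichever replicate was left out.

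JUN, the founding AP-1 subunit, fell in 4 knockdowns and rose in 1. It had 232, 308 and 423 CPM in the libraries labelled ZFP36L1, against 514.6, 608.6 and 874 CPM in NT libraries, with no overlap (-1.03 ± 0.07, adjusted p = 1.66e-14). The libraries labelled CNOT4 had 92.7, 325 and 561 CPM (-0.96 ± 0.14, adjusted p = 1.64e-06), and the lowest of them was the 2 h library of 1781724 reads. ZMAT5 libraries were on the other side, at 646, 853.5 and 1011 CPM (0.40 ± 0.07, adjusted p = 4.80e-05). PHF7 and ZNF706 libraries overlapped NT, with changes of -0.40 ± 0.09 (adjusted p = 0.00539) and -0.31 ± 0.07 (adjusted p = 0.00583), and each of these calls was lost without replicate 1 and without replicate 2. BRCA1, MAZ and ZMAT3 libraries gave -0.04, -0.10 and -0.04, none called.

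ATF3, a stress-induced partner of the JUN proteins, was higher in 3 knockdowns. It had 62.4, 102.5 and 144 CPM in ZMAT5 libraries, against 5.70, 30.4 and 53.9 CPM in NT libraries (1.74 ± 0.20, adjusted p = 3.10e-08), and the groups did not overlap. ZMAT3 libraries had 38.8, 56.9 and 81.5 CPM (0.90 ± 0.21, adjusted p = 0.00463) and those labelled CNOT4 had 0, 58.1 and 171 CPM (1.07 ± 0.41, adjusted p = 0.0484). The call in ZMAT3 was lost without replicate 2 and the call labelled CNOT4 without replicate 1 or 2. JUNB rose in the libraries labelled CNOT4 (2.40 ± 0.71, adjusted p = 0.0108), in ZMAT5 libraries (2.05 ± 0.67, 0.0426) and in those labelled ZFP36L1 (1.61 ± 0.64, 0.0425), over a low NT level of 0.122, 1.60 and 14.95 CPM. Each JUNB call was lost without replicate 1 and without replicate 2. FOS, FOSB and FOSL2 were called in no knockdown. FOS had 0 reads in 9 NT libraries and 15.3, 26.6 and 29.4 CPM in the other 3, and its log2 changes ran between -0.44 and 2.99 with standard errors of 1.98 to 6.30.

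FOSL1 (FRA1, another AP-1 subunit) and GEM, a small GTPase induced by mitogens, had 1 read each over the 12 NT libraries. FOSL1 had 703 reads over the ZMAT5 libraries and 184 over those labelled CNOT4, and GEM had 787 over the PHF7 libraries and 765 over the ZMAT5 libraries. Per counted read, the ratio to NT was 430 for FOSL1 in ZMAT5 (95% counting interval 77.0 to 17020) and 414 for GEM in PHF7 (74.1 to 16380). These intervals cover counting error only. FOSL1 was called higher in 6 knockdowns and GEM in 7. With 1 NT read each, they passed the count filter only through knockdown libraries, so a call could only be higher. When the other 7 knockdowns took the place of NT, GEM lay on the lower side in the libraries labelled CNOT4, MAZ, ZFP36L1 and ZMAT3, and none of those 4 differences was called.

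**Figure D2:**
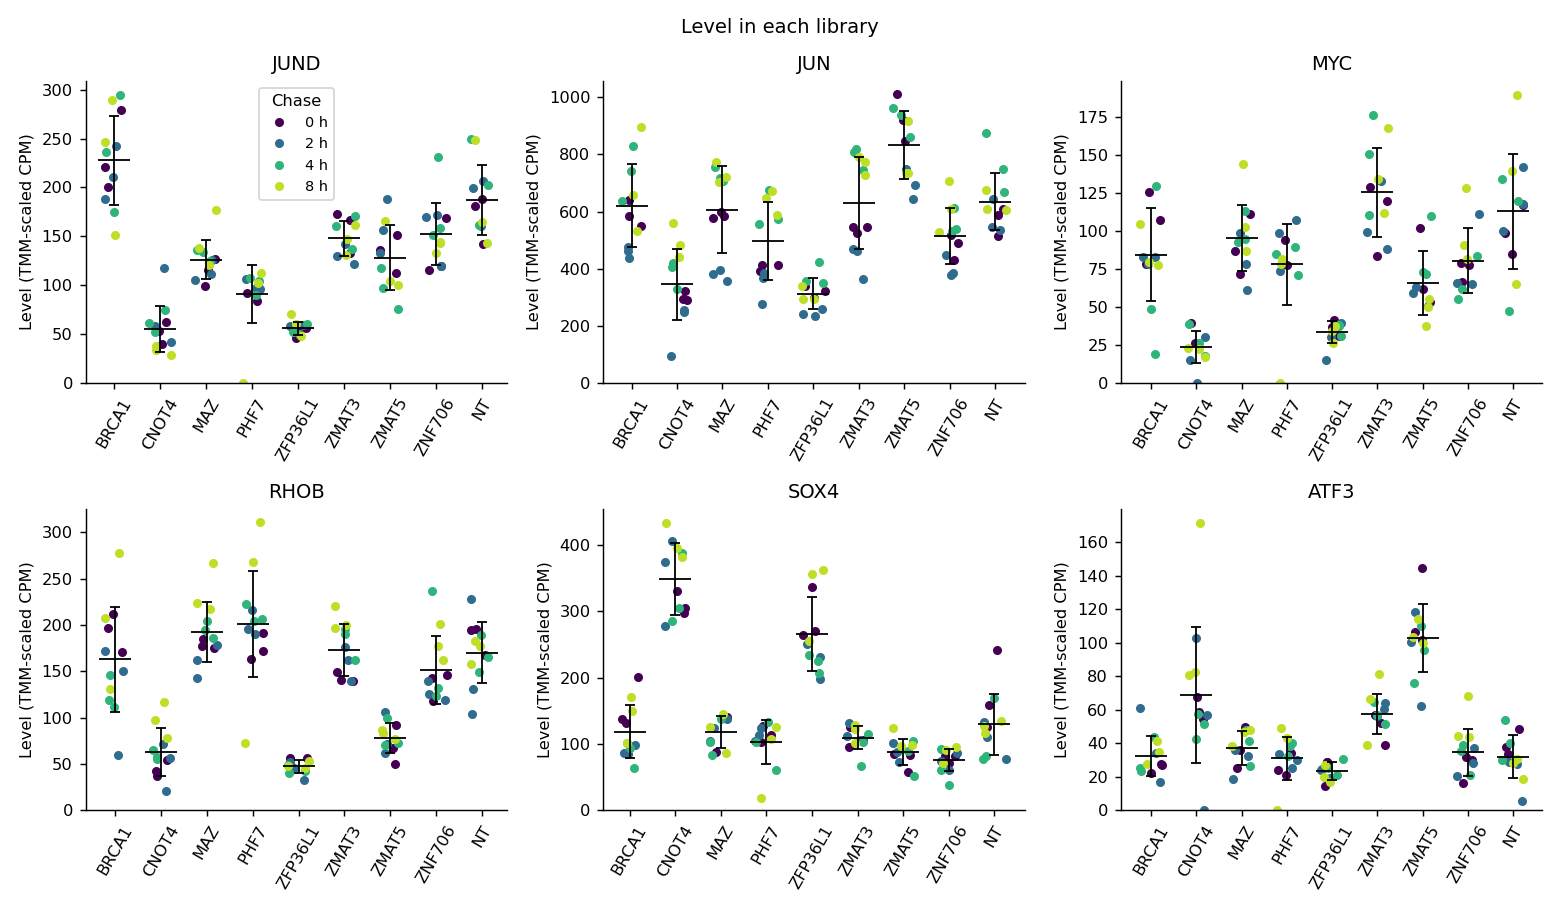
Level of JUND, JUN, MYC, RHOB, SOX4 and ATF3 (y axis, TMM-scaled CPM) in every library, with arms along the x axis and NT at the right, points coloured by chase time, and bars for the mean and SD of 12 libraries. JUND, JUN, MYC and RHOB sit lowest in the libraries labelled CNOT4 and ZFP36L1, where SOX4 sits highest.

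MYC, the transcription factor that drives growth and ribosome synthesis, fell in 3 knockdowns. It had 15.1, 35.5 and 41.5 CPM in the libraries labelled ZFP36L1 and 0, 24.3 and 39.2 CPM in those labelled CNOT4, against 47.5, 117 and 189 CPM in NT libraries, with no overlap. The log2 changes were -1.77 ± 0.18 (adjusted p = 4.13e-10) and -2.31 ± 0.34 (adjusted p = 3.06e-06). ZMAT5 libraries overlapped NT at 37.4, 60.3 and 109.9 CPM (-0.80 ± 0.18, adjusted p = 0.00246), and that call was lost without replicate 2 or 3. ZNF706 libraries gave -0.50 ± 0.16 (adjusted p = 0.0601), and PHF7, BRCA1, MAZ and ZMAT3 libraries gave -0.46, -0.43, -0.25 and 0.15, none called.

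HEXIM1, which holds the elongation kinase P-TEFb inactive, had 68.9, 85.8 and 99.8 CPM in the libraries labelled ZFP36L1, against 101.9, 163 and 251 CPM in NT libraries (-0.98 ± 0.12, adjusted p = 1.63e-08), without overlap. PIM3, a serine/threonine kinase that promotes survival, had 117, 161 and 190 CPM in those labelled CNOT4, against 196, 255 and 317 CPM in NT libraries, again without overlap (-0.70 ± 0.11, adjusted p = 1.63e-05). PIM3 was also lower in PHF7 libraries (-0.88 ± 0.15, adjusted p = 0.000147) and in those labelled ZFP36L1 (-0.47 ± 0.09, adjusted p = 0.000124). Its relative PIM1 was lower in those labelled ZFP36L1 (-0.94 ± 0.35, adjusted p = 0.0296), a call lost without replicate 1 or 3. HEXIM1 was lower in ZMAT3 libraries by a smaller step (-0.38 ± 0.11, adjusted p = 0.0221), lost without replicate 1 or 3. CCNL1, a cyclin of the splicing kinases, was called in none, with changes between -0.03 and 0.50.

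Of the IER family, small early-response nuclear and cytoplasmic regulators, IER5 had 67.5, 83.7 and 102 CPM in the libraries labelled ZFP36L1, against 93.5, 127 and 199.6 CPM in NT libraries (-0.64 ± 0.11, adjusted p = 1.28e-05). ZMAT3 libraries had 76.0, 89.0 and 115 CPM (-0.51 ± 0.11, adjusted p = 0.00165). IER3 was higher in ZMAT5 libraries at 36.03, 46.4 and 62.0 CPM, against 7.78, 19.0 and 49.0 CPM in NT (1.23 ± 0.24, adjusted p = 0.000348), but 100% of its reads mapped to more than 1 place, so its level cannot be assigned to this locus. IER2 and IER5L were called in no knockdown.

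The zinc-finger factors of the EGR and KLF families gave 5 calls. EGR1, which is induced through serum response factor, had 5.24, 15.1 and 128 CPM in the libraries labelled CNOT4, against 0, 0 and 8.30 CPM in NT libraries (3.90 ± 1.09, adjusted p = 0.00719), lost without replicate 1 or 3. KLF11 was higher in ZNF706 libraries at 16.2, 29.4 and 39.7 CPM, against 5.66, 13.4 and 23.0 CPM in NT (1.07 ± 0.28, adjusted p = 0.0169), and that call was lost whichever replicate was left out. KLF6 had 36.6, 45.4 and 55.2 CPM in the libraries labelled ZFP36L1, against 20.5, 66.0 and 123 CPM in NT (-0.67 ± 0.18, adjusted p = 0.00357), and in the 0 h libraries alone it stood at 0.33 above NT and was not called. KLF10 was lower in the same arm at 6.26, 13.9 and 20.8 CPM, against 6.17, 22.8 and 64.2 CPM in NT (-1.01 ± 0.31, adjusted p = 0.00864, lost without replicate 3) and KLF2 in those labelled CNOT4 (-2.74 ± 1.04, adjusted p = 0.0491, lost whichever replicate was left out). KLF4 was called in none.

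SOX4, an SRY-related factor of progenitor cells, was called in 4 knockdowns, higher in 2 and lower in 2. It had 278, 352 and 433 CPM in the libraries labelled CNOT4, against 77.4, 126 and 242 CPM in NT libraries, without overlap (1.44 ± 0.15, adjusted p = 7.61e-09). Those labelled ZFP36L1 had 198, 253 and 361 CPM (1.04 ± 0.12, adjusted p = 1.41e-08). It was lower in ZNF706 libraries at 37.6, 77.7 and 95.9 CPM (-0.76 ± 0.15, adjusted p = 0.000998) and in ZMAT5 libraries at 51.4, 89.2 and 124 CPM (-0.53 ± 0.16, adjusted p = 0.0228), and the ZMAT5 call was lost whichever replicate was left out. IRF2BP2, a transcriptional corepressor, was lower in ZMAT5 libraries (-0.47 ± 0.12, adjusted p = 0.00518) and in those labelled ZFP36L1 (-0.27 ± 0.10, adjusted p = 0.0289), both lost without replicate 2 or 3. HES1, a Notch target, and CSRNP1 were called in none.

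Of the 7 feedback inhibitors of MAPK and receptor signalling, DUSP1 and SPRED2 were called. DUSP1, a nuclear MAP kinase phosphatase, had 56.5, 83.8 and 136.5 CPM in ZMAT5 libraries, against 1.04, 37.2 and 68.1 CPM in NT libraries (1.41 ± 0.29, adjusted p = 0.000764). In the libraries labelled ZFP36L1 it had 7.98, 16.0 and 25.1 CPM (-1.17 ± 0.34, adjusted p = 0.00570), and that call was lost without replicate 1 or 2. SPRED2, which restrains RAS to ERK signalling, was higher in ZNF706 libraries (1.08 ± 0.30, adjusted p = 0.0263) and lower in those labelled ZFP36L1 (-0.89 ± 0.34, adjusted p = 0.0379), the first lost whichever replicate was left out and the second without replicate 1 or 2. DUSP4, DUSP5, DUSP6, SPRY2 and SPRY4 were called in no knockdown, and SPRY4 passed the count filter in 4 of the 8.

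RHOB fell in 3 knockdowns. It had 32.6, 47.8 and 56.6 CPM in the libraries labelled ZFP36L1, against 104, 172 and 228 CPM in NT libraries, without overlap (-1.85 ± 0.11, adjusted p = 1.20e-15). Those labelled CNOT4 had 21.1, 57.2 and 117.5 CPM (-1.51 ± 0.18, adjusted p = 1.245e-07) and ZMAT5 libraries had 50.1, 74.5 and 106 CPM (-1.11 ± 0.13, adjusted p = 3.33e-08). GADD45A, a growth arrest protein induced by DNA damage, was higher in ZMAT5 libraries at 70.5, 94.9 and 144 CPM, against 24.97, 52.1 and 83.1 CPM in NT (0.87 ± 0.17, adjusted p = 0.000521). It was also higher in those labelled CNOT4 (0.69 ± 0.21, adjusted p = 0.0140, lost without replicate 1). SGK1, a kinase induced by serum and glucocorticoid, had 0.827, 3.16 and 5.90 CPM in the libraries labelled ZFP36L1, against 1.48, 17.1 and 55.9 CPM in NT (-2.57 ± 0.47, adjusted p = 2.94e-05). NFKBIA, GADD45B, PLK2 and ARC were called in no knockdown.

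The members with and without TATTTAT were set side by side. In the libraries labelled ZFP36L1 (21.7% of all genes higher and 18.3% lower), 3 of 25 tested members with it rose and 9 fell and the median log2 change was -0.64, and of 16 without it 1 rose and 5 fell and the median was 0.06. The median was also lower with the motif in ZMAT3 libraries (-0.18 with and 0.26 without), in those labelled CNOT4 (-0.08 and 0.29), in ZMAT5 libraries (0.27 and 0.65), in PHF7 libraries (-0.05 and 0.08) and in MAZ libraries (0.05 and 0.16), and higher in ZNF706 libraries (0.18 and -0.10) and BRCA1 libraries (0.06 and -0.01). The gap was not tested. FOSL1 and GEM, which hold TATTTAT, had 1 NT read each and could only be called higher. They are in the counts and medians with the motif wherever they were tested, and the split was not made without them. JUN, JUND, PIM3, HEXIM1, MYC and RHOB all fell in the libraries labelled ZFP36L1, and the last 3 held no TATTTAT. The lower number of covered thymines per read in this arm and in the one labelled CNOT4 moved with these results, and its part in them was not tested.

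For the label, a member had to exceed 5 in the deposited CPM, summed over its intervals and not TMM-scaled, in 2 or more replicates of every chase time. In NT libraries 20 members passed, with a mean T>C rate at 0 h of 1.39% to 3.66% (median 2.73%). Of that label the median member kept 34.2% at 2 h, 8.52% at 4 h and 2.33% at 8 h, against 73.6%, 50.1% and 20.6% for the median of all genes. MYC had T>C rates of 2.49%, 3.86% and 4.64% in the NT libraries at 0 h, 0.988%, 1.34% and 0.715% at 2 h, 0.228%, 0.810% and 0.435% at 4 h, and 0.00180%, 0.105% and 0.239% at 8 h. The 0 h libraries lay above all others, while the 2 h and 4 h libraries overlapped, as did those of 4 h and 8 h. JUN had 2.91%, 2.74% and 3.19% at 0 h, 0.791%, 0.88% and 0.807% at 2 h, 0.279%, 0.409% and 0.242% at 4 h, and 0.0395%, 0.0534% and 0.109% at 8 h, so its 4 times did not overlap. HEXIM1 had 3.69%, 2.46% and 2.79% at 0 h, 1.15%, 2.01% and 1.41% at 2 h, 0.580%, 0.648% and 0.361% at 4 h, and 0.0501%, 0.0524% and 0.267% at 8 h. At 8 h the NT members rested on 1 to 998 conversions among 22638 to 839316 covered thymines.

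**Figure D3:**
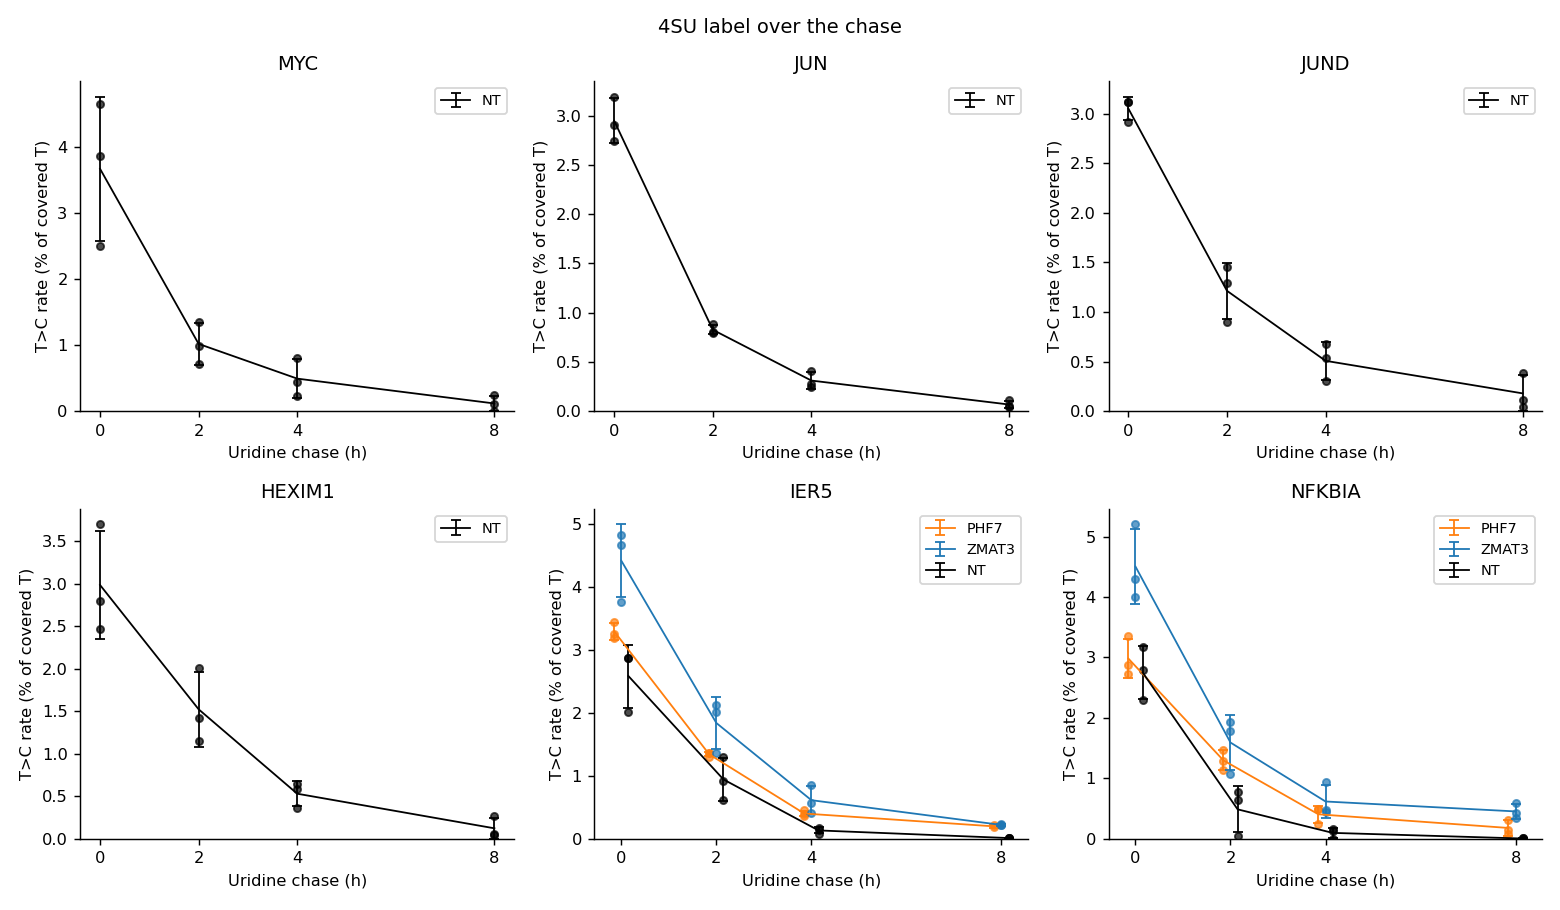
T>C rate (y axis, percent of covered thymines) over the uridine chase (x axis, h) for MYC, JUN, JUND and HEXIM1 in NT libraries and for IER5 and NFKBIA in PHF7, ZMAT3 and NT libraries, with a point per library and lines through the means with SD. IER5 and NFKBIA end nearest 0 in NT, where 16 and 6 conversions were read at 8 h.

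Each arm was also fitted on its own, testing whether a gene's T>C rate fell faster than the pooled rate of the library. Among members, 153 of 194 fits were called faster and 0 slower. All 23 tested members were faster in PHF7 libraries (44.5% of all genes) and in ZMAT3 libraries (43.7%), all 19 in those labelled ZFP36L1 (54%) and all 21 in MAZ libraries (43.2%). There were 21 of 23 in ZNF706 libraries (25.5%), 16 of 24 in ZMAT5 libraries (20.8%), 10 of 22 in BRCA1 libraries (8.5%), 5 of 19 in those labelled CNOT4 (0.873%) and 15 of 20 in NT libraries (13.2%). The pooled rate is weighted to abundant, stable mRNAs, so the median gene was used as the centre as an alternative chosen after seeing the data. In ZMAT3 libraries that gave 2551 of 8503 genes faster and 2767 slower, against 3714 faster and 1545 slower with the pooled rate, and 23 of 23 members were faster under both. With that centre the members called faster were 16 in PHF7, 18 in those labelled ZFP36L1, 20 in MAZ, 20 in ZNF706, 13 in ZMAT5, 9 in BRCA1, 0 in those labelled CNOT4 and 11 in NT libraries, with 0 slower. The all-gene split was then 19.7% faster and 6.9% slower in PHF7, 33.7% and 34.7% in those labelled ZFP36L1, 27.4% and 32.4% in MAZ, 13.4% and 21.9% in ZNF706, 10.0% and 19.9% in ZMAT5, 4.15% and 19.3% in BRCA1, and 6.36% and 18.8% in NT libraries. In those labelled CNOT4 it was 0 faster and 0 slower of 7674 genes, so the 0 members there is the same as for all genes. With the pooled rate as the centre the slower shares were 16.8% in PHF7, 16.4% in those labelled ZFP36L1, 15.9% in MAZ, 9.67% in ZNF706, 7.91% in ZMAT5, 4.24% in BRCA1, 0.586% in those labelled CNOT4 and 5.82% in NT libraries. The members' median rate over the pool was between 0.205 per h, in those labelled CNOT4, and 0.340 per h, in NT. Limma on log ratios called 4 of the 23 in PHF7 libraries, 0 in those labelled CNOT4, and 13 to 23 in the other arms. Of all genes it called 529 in PHF7 libraries, against 3810 in the main fit, and 0 in those labelled CNOT4, against 67. The log ratio adds 0.5 to the conversions and 1 to the covered thymines. A member with no read in the PHF7 library of 63659 reads therefore takes a ratio of 0.5 there, above its rate at 0 h. The median-gene centre used the same additions. Without replicate 1 or without replicate 2, PHF7 tested 7 members and called all 7, since the library of 63659 reads then decided which passed, and those labelled CNOT4 gave 0 without replicate 1 or 2 and 11 without replicate 3. Over all genes PHF7 then had 992 and 997 faster, against 3810 in the main fit. Those labelled CNOT4 had 1, 1 and 624 without replicates 1, 2 and 3 in turn, against 67.

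Half-lives were fitted as a first-order decay to the mean T>C rate of each time, normalised to 0 h, and kept at an R2 above 0.6. They carry no test. A half-life was obtained for 16 members in all 9 arms, for 27 in at least 1 arm, and for none of the other 15, FOS, FOSB, FOSL1, JUNB and EGR1 among them. The members' median was 1.155 h in NT libraries (20 members), 1.86 h in ZMAT3 libraries (23 members), and in between in the other arms, whereas the median of all genes was between 3.25 h and 5.06 h. Every member with a half-life was below the median of all genes in 8 arms. In BRCA1 libraries 21 of 22 were, the exception being KLF11 at 3.32 h.

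Among the 16 members measured everywhere, KLF6 (median over arms 1.09 h, from 0.739 to 2.08 h), NFKBIA (1.11 h, from 0.804 to 1.57 h), MYC (1.17 h, from 0.966 to 1.51 h), JUN (1.23 h, from 1.07 to 1.54 h) and HES1 (1.26 h, from 0.875 to 1.55 h) were shortest. HEXIM1 (2.71 h, from 1.83 to 2.87 h), JUND (2.405 h, from 1.52 to 3.12 h) and PIM3 (1.97 h, from 1.42 to 2.51 h) were longest. Neighbours in this order overlapped in their ranges over arms, and the ranges of MYC and HEXIM1 did not overlap. The 2 JUN paralogs differed, with JUND above JUN in each of the 9 arms. Members with TATTTAT had a median of 1.14 h in NT libraries (12 members), against 1.28 h without it (8 members). The order was the other way in MAZ libraries (1.494 h with and 1.333 h without) and in ZNF706 libraries (1.537 h with and 1.411 h without), and the ranges of the 2 sets overlapped in every arm. PIM1 in BRCA1 libraries gave 0.111 h, below the first chase interval.

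**Figure D4:**
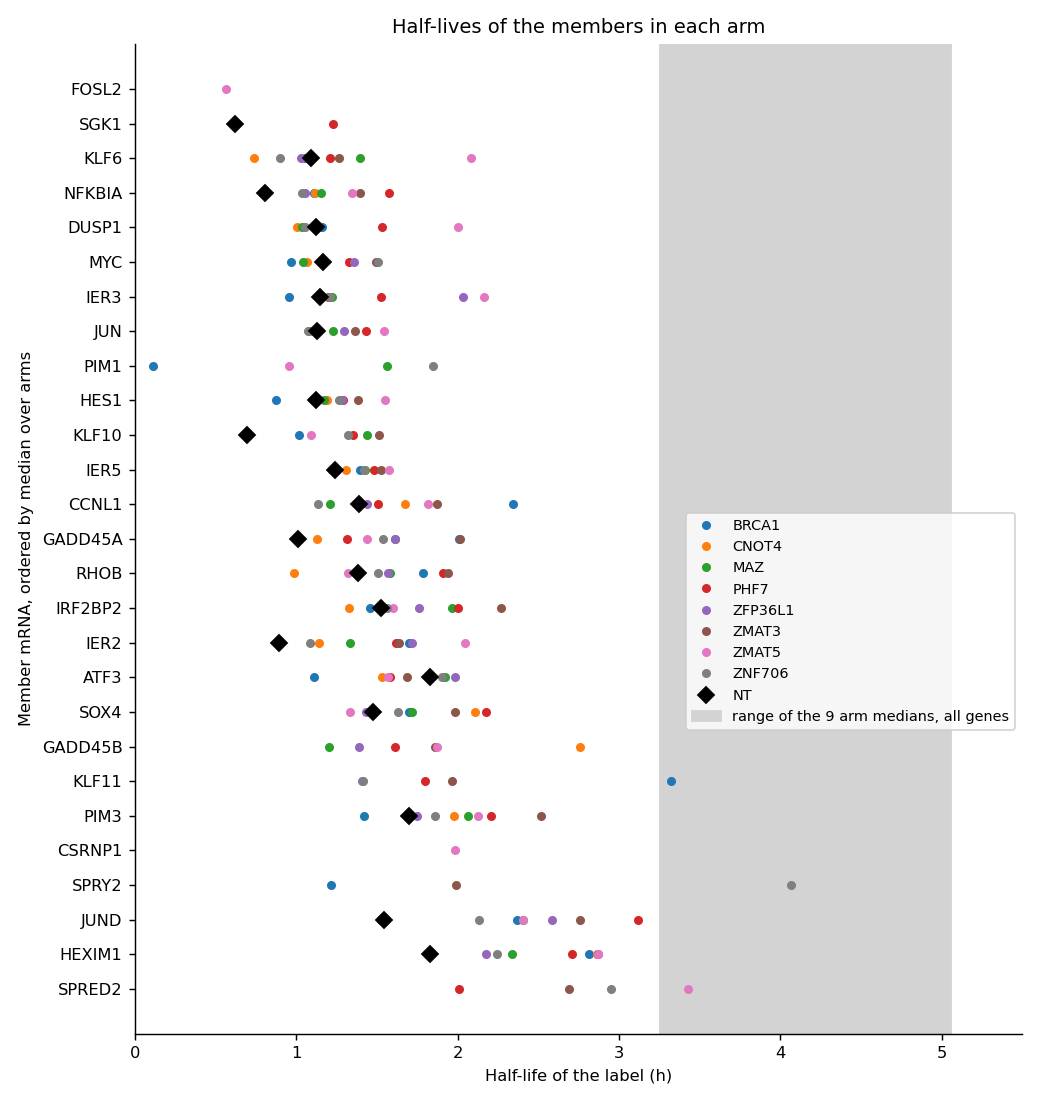
Half-life of the 4SU label (x axis, h) for the 27 members with a fit (rows, ordered by their median over arms), with a dot per knockdown arm, a black diamond for NT and a grey band for the range of the 9 arm medians over all genes. All but 3 points (KLF11 in BRCA1, SPRED2 in ZMAT5 and SPRY2 in ZNF706) lie left of the band, which runs between 3.25 h and 5.06 h.

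Whether a knockdown changed label loss was tested as the difference of the slopes in log T>C rate, knockdown minus NT, over the conversions with covered thymines as offset. This called 3 of 149 member tests, all slower. IER5 lost label at 0.362 per h in PHF7 libraries, against 0.697 per h in NT libraries (difference -0.33 ± 0.06 SE, adjusted p = 0.00313; 1 of 20 members, 0.307% of all genes). In ZMAT3 libraries it was 0.376 per h, against 0.696 per h in NT (-0.32 ± 0.06, adjusted p = 0.00597). NFKBIA, the inhibitor of NF-kB, lost label at 0.279 per h in ZMAT3 libraries, against 0.783 per h in NT libraries (-0.50 ± 0.10, adjusted p = 0.0146), so 2 of 19 members were called there (0.574% of all genes). All 8 comparisons share the same NT libraries, so the IER5 calls are not independent. The IER5 differences in the arms where it was not called were -0.32 in those labelled CNOT4 (adjusted p = 0.0845), -0.28 in ZNF706, -0.27 in those labelled ZFP36L1 (0.0533), -0.26 in MAZ, -0.26 in ZMAT5 and -0.14 in BRCA1. The NFKBIA differences were -0.50 in those labelled CNOT4, -0.50 in ZMAT5, -0.43 in PHF7, -0.34 in ZNF706, -0.32 in MAZ, -0.31 in those labelled ZFP36L1 and -0.13 in BRCA1. Differences between knockdowns were not tested, so slower loss cannot be called particular to PHF7 or ZMAT3.

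The difference lay late in the chase. IER5 had T>C rates at 8 h of 0.182% and 0.212% in the 2 deep PHF7 libraries and 0.212%, 0.235% and 0.212% in ZMAT3 libraries, against 0.00699%, 0.0148% and 0.0133% in NT libraries. NFKBIA had 0.585%, 0.347% and 0.426% in ZMAT3 libraries, against 0.00678%, 0 and 0.00654% in NT libraries. Those NT values rest on 16 and 6 conversions, and all 3 calls were lost when the 8 h libraries were left out and when limma was used. In PHF7 libraries limma gave IER5 a ratio of 0.5 in the 8 h library of 63659 reads, where it had no read. The call in PHF7 could not be made without replicate 1 or 2, where IER5 was not tested, and both calls in ZMAT3 were lost without any 1 replicate (adjusted p between 0.0559 and 0.118). In the other knockdowns edgeR called 0 members, with 4 in BRCA1, 8 in those labelled CNOT4, 8 in MAZ, 6 in those labelled ZFP36L1, 10 in ZMAT5 and 6 in ZNF706 at an unadjusted p under 0.05, and limma called 0 in every arm. The shares of all genes called were 0.0% in BRCA1, 0.0579% in those labelled CNOT4, 0.0402% in MAZ, 0.0815% in those labelled ZFP36L1, 0.0684% in ZMAT5 and 0.0137% in ZNF706. These shares are at the adjusted p. The share of all genes at the unadjusted p was not counted, so those member counts have no background.

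JUND, MYC and JUN, which fell in level in the libraries labelled ZFP36L1 and CNOT4, were called for label loss in neither. JUND lost label at 0.335 per h in the libraries labelled ZFP36L1, against 0.351 per h in NT (difference -0.02 ± 0.06, adjusted p = 0.964), and at 0.313 per h in those labelled CNOT4 (-0.04 ± 0.08, adjusted p = 0.971). MYC lost it at 0.430 per h in those labelled ZFP36L1 (0.01 ± 0.08, adjusted p = 0.989) and at 0.462 per h in those labelled CNOT4 (0.04 ± 0.10, adjusted p = 0.984), against 0.423 and 0.422 per h in NT. JUN lost it at 0.444 and 0.324 per h in the same arms, against 0.465 per h in NT (differences -0.02 ± 0.04 and -0.14 ± 0.05, adjusted p = 0.915 and 0.413). These p-values do not show that the rates are equal, and the standard errors give the size of difference left unresolved.

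The level over the chase was compared at each time with 0 h over all 9 arms, with arm as a factor, and the 3 comparisons share the 0 h libraries. JUN was lower at 2 h (0.786-fold, log2 -0.35 ± 0.06, adjusted p = 0.00336) and higher at 4 h (1.26-fold, 0.33 ± 0.06, adjusted p = 0.00122) and at 8 h (1.24-fold, 0.31 ± 0.06, adjusted p = 0.00103). In MAZ libraries JUN had 584, 578 and 599 CPM at 0 h, 396, 357 and 381 CPM at 2 h, 757, 707 and 716 CPM at 4 h, and 722, 704 and 774 CPM at 8 h. In NT libraries it had 607, 515 and 588 CPM at 0 h, 643, 545 and 536 CPM at 2 h, 874, 750 and 667 CPM at 4 h, and 606, 610 and 676 CPM at 8 h. The 2 h libraries lay wholly below the 0 h libraries in 7 arms and overlapped them in ZNF706 and NT. In NT libraries alone the 2 h change was 0.03 and was not called.

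CCNL1 was higher at 2 h (1.45-fold, 0.53 ± 0.12, adjusted p = 0.0222), so 1 member rose and 1 fell of 42 (0.0735% of all genes higher and 0.114% lower). At 4 h 1 of 42 rose, JUN (0.515% higher and 0.234% lower). At 8 h 5 rose (2.4% higher and 2.53% lower): IRF2BP2 (1.32-fold, 0.40 ± 0.09, adjusted p = 0.00477, higher on average in all 9 arms), JUN, KLF6 (1.36-fold, 0.44 ± 0.11, 0.00863), RHOB (1.26-fold, 0.33 ± 0.09, 0.0155) and HES1 (1.37-fold, 0.46 ± 0.14, 0.0281). MYC was not called, at -0.18, -0.02 and -0.03 with standard errors of 0.14, and its 8 h libraries lay wholly below those of 0 h in the arm labelled CNOT4 (-0.55) and wholly above them in ZNF706 (0.43). The 8 h libraries labelled CNOT4 also differed from those of 0 h in covered thymines and multimapped reads. FOS was not called. Without replicate 1 and without replicate 2 all 8 of these calls were lost, the 2 h calls also without replicate 3, and 0 were made in the NT libraries alone, where RHOB at 8 h was lower by 0.11. Over all genes the 2 h calls fell from 28 to 0 with any replicate left out. Without replicates 1 and 2 in turn, the 4 h calls fell from 112 to 1 and 6, and the 8 h calls from 738 to 190 and 53. The NT libraries alone called 0, 1 and 0 of all genes at 2, 4 and 8 h. Medium was replaced at the start of the chase in every arm.

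**Figure D5:**
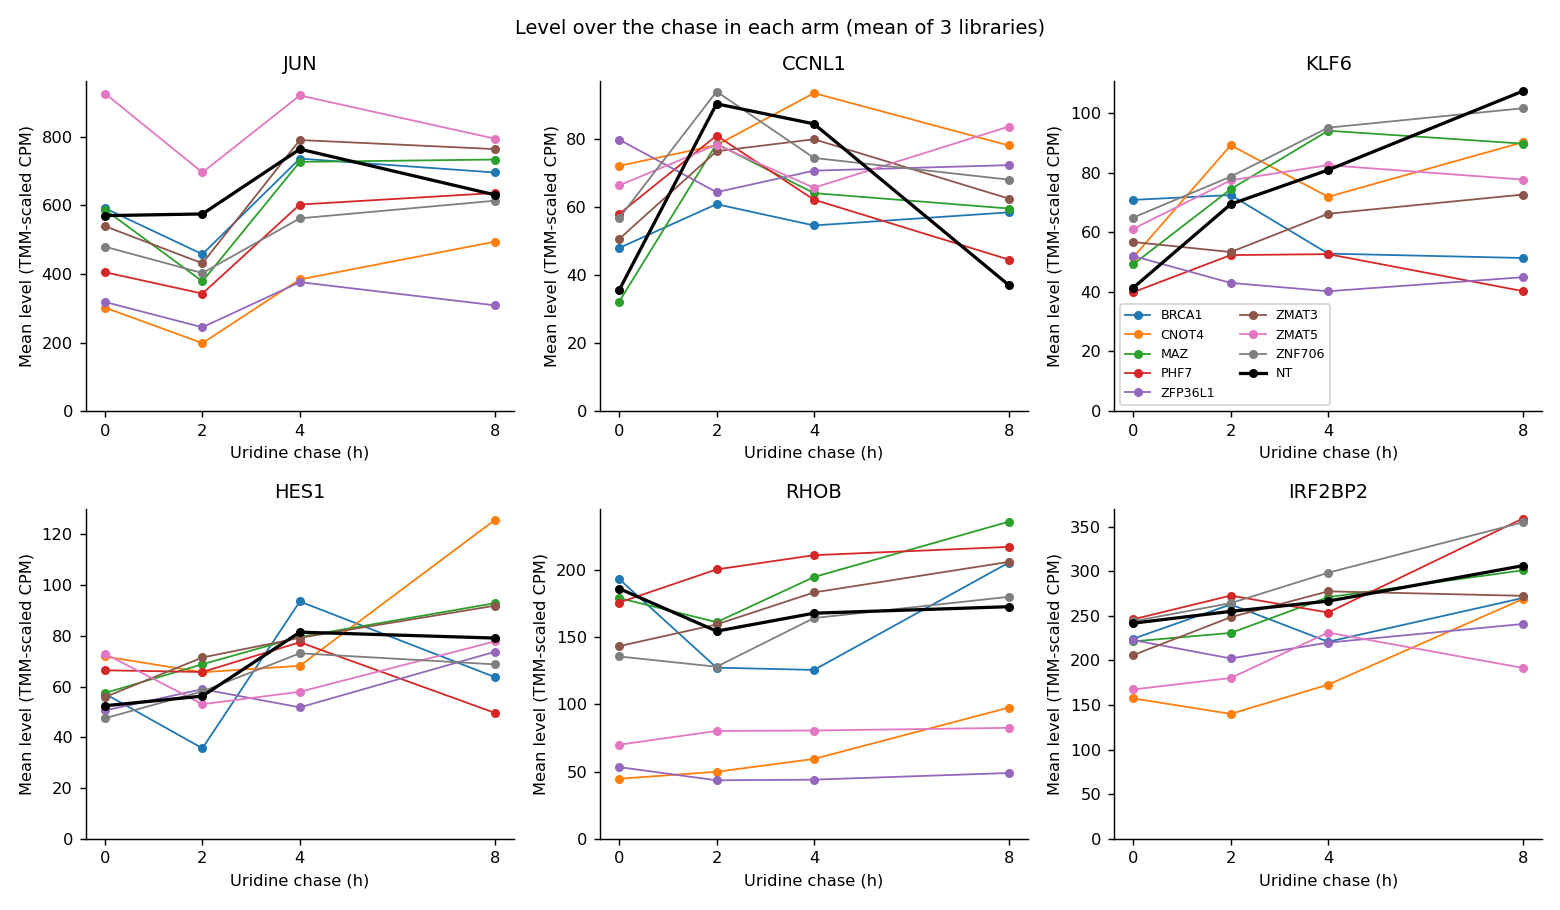
Mean level of 3 libraries (y axis, TMM-scaled CPM) over the uridine chase (x axis, h) for the 6 members called over the chase, with a line per arm and NT in black. JUN dips at 2 h in 8 arms and not in NT, and IRF2BP2 ends higher than it began in all 9 arms.

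Whether the level difference between a knockdown and NT depended on chase time was tested with the arm by time terms of edgeR, and 0 members were called in any of the 8 knockdowns. The shares of all genes called were 0.0157% in BRCA1, 0.571% in those labelled CNOT4 and 0.0% in the other 6. At an unadjusted p under 0.05 there were 3 members in BRCA1, 4 in those labelled CNOT4, 3 in MAZ, 3 in PHF7, 5 in those labelled ZFP36L1, 4 in ZMAT3, 3 in ZMAT5 and 1 in ZNF706. All genes were not counted at that threshold, here or in the joint test below, so these member counts have no background. JUN in MAZ libraries came closest, with -0.61 against NT at 2 h and 0.05, -0.07 and 0.22 at 0, 4 and 8 h (adjusted p = 0.206). A test of all arm by time terms together, added after seeing the data, called 0 of 42 members (0.876% of all genes), with JUN at an adjusted p of 0.0745 and 4 members at an unadjusted p under 0.05.

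The other inducible mRNAs of these pathways, a list of 54 genes, were read in the same fits. In the libraries labelled CNOT4, 13 of 50 tested rose and 6 fell, in those labelled ZFP36L1 6 of 49 rose and 9 fell, in ZMAT5 libraries 4 of 50 rose and 1 fell, in MAZ libraries 0 of 51 rose and 5 fell, in PHF7 libraries 2 of 51 rose and 6 fell, in ZMAT3 libraries 2 of 51 rose and 1 fell, in ZNF706 libraries 1 of 50 rose and 2 fell, and in BRCA1 libraries 0 of 50 were called. Over all genes the shares higher and lower were 13.5% and 13.5% in those labelled CNOT4, 21.7% and 18.3% in those labelled ZFP36L1, 5.29% and 4.22% in ZMAT5, 5.19% and 3.55% in MAZ, 3.89% and 4.53% in PHF7, 5.49% and 4.75% in ZMAT3, and 2.85% and 2.29% in ZNF706 libraries. ID3, an inhibitor of helix-loop-helix factors, averaged 133 CPM in ZMAT5 libraries, against 337 CPM in NT (-1.34 ± 0.10, adjusted p = 1.68e-12). MCL1, a short-lived survival protein, averaged 247 CPM in the libraries labelled ZFP36L1, against 512.5 CPM in NT (-1.05 ± 0.08, adjusted p = 3.44e-13), and 741 CPM in ZMAT5 libraries (0.54 ± 0.08, adjusted p = 4.44e-06). MCL1 was also the gene of this list whose label loss was called, slower in ZMAT3 libraries at 0.377 per h, against 0.5325 per h in NT (-0.16 ± 0.04, adjusted p = 0.0494). For label loss relative to the pool, 24 of 25 were faster in MAZ libraries and 12 of 22 in NT libraries.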

How the data were processed

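3′-end SLAM-seq libraries were read by the authors with slamdunk 0.4.3 on hg38, per the labels' processing notes. The deposited tables give, for each of 69079 3′ UTR intervals, read counts, depth-scaled counts (CPM) and the T>C conversion rate as a fraction, with covered thymines and conversions as counts. The counts were summed per gene, TMM-scaled CPM and the rate were computed from them, and the label filter used the deposited CPM summed per gene. Genes were named with GENCODE 44 (19501 of 19761). Levels and label were tested with edgeR 4.0.16 (quasi-likelihood, TMM, filterByExpr; conversions with covered thymines as offset), and alternatives used limma 3.58.1 and DESeq2 1.42.0, in R 4.3.3. The scripts were tested on simulated data. Calls needed an adjusted p under 0.05, and for levels a change above 1.2-fold. The 42 members and the list of 54 other genes were chosen with earlier results of these data known. Members named are those called in a comparison, with MYC, JUN and FOS, in order of role, and some calls are given by their fit alone. Knockdown and NT libraries of the same replicate number and chase time were not correlated (0 of 96 pairs above 0.1), so no block was used in the main fits. Whether libraries of the same replicate number within an arm share a culture was not tested, and the fits treat them as independent. Depth was 63659 to 30750027 reads, and counting intervals cover counting error only. Alternatives are in the closing section.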

Additional observations from a re-analysis of the deposited data

Results flagged for a closer look

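In 7 member and knockdown pairs the 3 knockdown libraries lay wholly on opposite sides of the NT libraries at different chase times, and in 15 member and chase time pairs the libraries lay on opposite sides of 0 h in different arms. Neither pattern was counted over all genes, so these counts have no background to be set against. JUN in MAZ libraries, for example, was at -0.60 on the log2 scale against NT at 2 h and 0.22 at 8 h. KLF6 at 8 h was at -0.21 against 0 h in the libraries labelled ZFP36L1 and 1.38 in NT. The arm by chase time tests of edgeR called 0 members.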

How the results depend on the processing

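Of the counts of called members under an alternative, 241 were within 1.5 times the main count or equal and 74 were not. The 0 h libraries alone gave for levels 7 called members labelled CNOT4, 0 in MAZ, 2 in PHF7, 7 labelled ZFP36L1, 0 in ZMAT3, 4 in ZMAT5 and 0 in ZNF706. In the same order, they called 1463, 71, 209, 1671, 52, 107 and 54 of all genes. The main fits called 3588, 1171, 1121, 5296, 1363, 1250 and 673. DESeq2 gave 1 in MAZ, 9 in PHF7 and 3 over the chase at 4 h. Against the other 7 knockdowns there were 3 in BRCA1, 1 in MAZ and 2 in ZMAT3. Over all genes that comparison called 2522 in BRCA1, against 10 in the main fit, and 711 in ZMAT3, against 1363. For label loss against NT, T>C reads gave 1 each labelled CNOT4, in MAZ and labelled ZFP36L1. Slopes relative to the pool gave 1 in MAZ and 1 labelled ZFP36L1, the 0 to 4 h libraries 0 in PHF7 and 0 in ZMAT3, limma 0 in PHF7 and 0 in ZMAT3, and a minimum of 1 CPM 2 in PHF7 and 1 labelled ZFP36L1. Relative to the pool, the 0 and 2 h libraries gave 0 in BRCA1, 0 labelled CNOT4, 13 in MAZ, 1 in NT, 10 labelled ZFP36L1, 1 in ZMAT5 and 9 in ZNF706, limma 0 labelled CNOT4 and 4 in PHF7, and the median gene 0 labelled CNOT4. In the same order, the 0 and 2 h libraries called 0, 0, 186, 3, 161, 4 and 33 of all genes. The main fits called 632, 67, 3626, 1003, 4588, 1675 and 2029. Of all genes, limma called 0 labelled CNOT4 and 529 in PHF7 (3810 in the main fit), and the median gene 0 labelled CNOT4. Without the low-count filter the level difference that depends on chase time gave 2 labelled ZFP36L1 and 1 each in ZMAT3, ZMAT5 and ZNF706. Over the chase, NT libraries only gave 0, 0 and 0, replicates summed 0 at 2 h, and leaving out the arms labelled CNOT4 and ZFP36L1 and PHF7 8 h replicate 3 gave 5 at 4 h. Of all genes, NT libraries only called 0, 1 and 0, against 28, 112 and 738 in the main fits. Replicates summed called 0 of all genes at 2 h, and leaving out those libraries called 345 at 4 h.

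With 1 replicate left out, levels gave 7 to 13 labelled CNOT4, 1 in MAZ, 3 to 4 in PHF7, 14 to 16 labelled ZFP36L1, 3 to 4 in ZMAT3, 9 to 11 in ZMAT5, 2 in ZNF706 and 0 in BRCA1. Over all genes these fits called 509 to 632 in MAZ (1171 in the main fit), 641 to 792 in ZMAT3 (1363) and 676 to 688 in ZMAT5 (1250). Without replicates 1 and 2 in turn they called 1834 and 1919 labelled CNOT4 (3588), 279 and 250 in PHF7 (1121) and 278 and 272 in ZNF706 (673). Relative to the pool there were 8 to 10 in BRCA1, 0 to 11 labelled CNOT4, 21 in MAZ, 9 to 14 in NT, 7 to 22 in PHF7, 18 to 19 labelled ZFP36L1, 22 in ZMAT3, 13 to 16 in ZMAT5 and 17 to 18 in ZNF706. Of all genes, the same fits called 227 to 316 in BRCA1 (632 in the main fit), 1 to 624 labelled CNOT4 (67) and 534 to 601 in NT (1003). Label loss gave 0 to 1 in PHF7 and 0 in ZMAT3, the level difference that depends on chase time 0 to 1 labelled ZFP36L1, in ZMAT3 and in ZMAT5, and the chase 0 at 2 h, 0 to 1 at 4 h and 0 to 5 at 8 h.

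Of the single members, 24 values reversed. Relative to the pool in PHF7, limma gave ATF3 -0.000291, DUSP1 -0.0779, GADD45A -0.0261, IER5 -0.04165, JUND -0.06545, KLF10 -0.0134, KLF11 -0.0881, MYC -0.0114 and SPRED2 -0.02135 per h, and the 0 and 2 h libraries gave SPRED2 -0.00706 in ZMAT5 and -0.0768 in ZNF706. In NT libraries only, JUN at 2 h was 0.0259 and RHOB at 8 h -0.11. Against the other 7 knockdowns GEM was -1.11 labelled CNOT4, -1.15 in MAZ, -2.25 labelled ZFP36L1 and -0.32 in ZMAT3, JUND 0.0385 in MAZ, 0.2995 in ZMAT3 and 0.0695 in ZMAT5, FOSL1 -0.69 in PHF7 and -1.35 in ZMAT3, and JUNB -0.0593 labelled ZFP36L1. KLF6 in the 0 h libraries labelled ZFP36L1 was 0.33. At 8 h each of the PHF7 members named for limma had a lowest level of 0 CPM, where the added counts fix the ratio at 0.5. The part of this in those reversals, and the cause of the other changes, were not tested.

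The replicate block gave level counts of 12 labelled CNOT4, 16 labelled ZFP36L1, 6 in PHF7, 15 in ZMAT5 and 5 in ZNF706, and 19 in ZMAT5 and 14 in NT relative to the pool. Knockdown and NT libraries of the same number were not correlated, and pairing across chase times within an arm was not tested. Over all genes, PHF7 level calls numbered 1121, against 1958 by DESeq2, BRCA1 10 against 53, and ZNF706 673 against 1064, and label loss in ZMAT3 was called for 43 genes, against 0 at 0 to 4 h. Members at or under 5 deposited CPM were not tested for label.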
